A study of Sus scrofa with 12 samples.

Results

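This is a report on 10 genes of the extracellular matrix of pig loin muscle, the matricellular and adhesive glycoproteins *FN1*, *SPARC*, *POSTN*, *TNC*, *THBS1* and *THBS2* and the elastic fibre genes *FBN1*, *FBLN1*, *FBLN2* and *MFAP5*. The genes were taken by name from a list of matrix glycoproteins and elastic fibre components, out of 28195 genes that the annotation of the pig genome (Sscrofa11.1) places on the chromosomes. An assembled transcript was assigned to 12962 of those genes in at least 1 library, including all 10 listed here. The 9018 genes with a mean level above 0.5 FPKM were tested, and 9 of the 10 passed that filter, *POSTN* being the exception. FPKM is a level per length of transcript, the number of sequenced fragments scaled to the length of the transcript and to the size of the library.

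The study asked which genes differ in expression between Iberian pigs of divergent loin tenderness. The samples are *Longissimus dorsi* muscle of castrated males of a purebred Iberian line, fattened outdoors on acorns and grass and taken for extreme breeding values for shear force among animals that shared no parent. The Tough group held 6 pigs with a shear force of cooked loin of 7.32 to 10.63 kg/cm2 and the Tender group 6 pigs with 2.18 to 3.43 kg/cm2, with 1 library per pig. The labels give no agent and no genotype for either group, and genotypes were not examined here. The labels name no lane and no fattening batch for single pigs, so a batch and the group cannot be told apart. The read depth behind 1 FPKM, the measure of depth that the files allow, was 6.87 to 10.3 in Tough and 6.55 to 8.37 in Tender, and Tender 2 stood apart from the other libraries in genes of the interferon gamma response.

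The matrix around muscle fibres is built mainly by fibroblasts. Fibronectin is a large adhesive protein that integrins on the cell surface pull into fibrils, and collagens, fibrillins and growth factor complexes assemble on it. Matricellular proteins such as SPARC, tenascin-C, periostin and the thrombospondins sit in the matrix without forming its main load-bearing fibres, and they adjust how cells hold on to it and how collagen fibrils form. Elastic fibres are made of an elastin core and of microfibrils of fibrillin, to which MFAP proteins and fibulins bind. In loin muscle this connective tissue is a known contributor to toughness.

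The deposited files are transcript assemblies, so the exons that each gene used could be read beside its level. The stretches printed here are the ones that the splice forms turn on. They were read from Sscrofa11.1 on the strand of the gene, 5′ to 3′, with the AG of the acceptor and the GT of the donor in capitals. The first is the exon for the extra domain B of fibronectin, of 273 bases, at chr15:117689285-117689557 on the minus strand. The second is the exon for the extra domain A, of 270 bases, at chr15:117677940-117678209. The third is a 75-base part of the variable region of *FN1* at chr15:117669504-117669578, closed by the AG of a second acceptor. It lies in the part of the variable region known to bind the integrin made of ITGA4 and ITGB1. The fourth is a 141-base exon of *FBLN2* at chr13:70770808-70770948 on the minus strand, and the fifth a 45-base exon of *MFAP5* at chr5:62748896-62748940 on the plus strand.
*FN1* extra domain B: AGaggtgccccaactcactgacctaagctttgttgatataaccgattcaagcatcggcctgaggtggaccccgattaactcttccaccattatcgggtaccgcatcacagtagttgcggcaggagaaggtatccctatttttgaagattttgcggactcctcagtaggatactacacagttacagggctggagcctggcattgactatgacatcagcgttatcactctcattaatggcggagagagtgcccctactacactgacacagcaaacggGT
*FN1* extra domain A: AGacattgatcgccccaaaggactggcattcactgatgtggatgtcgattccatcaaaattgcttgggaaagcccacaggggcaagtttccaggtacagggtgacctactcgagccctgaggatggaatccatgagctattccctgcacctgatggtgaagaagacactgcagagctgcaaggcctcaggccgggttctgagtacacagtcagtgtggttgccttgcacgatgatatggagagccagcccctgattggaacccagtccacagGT
*FN1* variable region: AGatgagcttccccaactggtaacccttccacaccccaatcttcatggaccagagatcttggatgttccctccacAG
*FBLN2* exon: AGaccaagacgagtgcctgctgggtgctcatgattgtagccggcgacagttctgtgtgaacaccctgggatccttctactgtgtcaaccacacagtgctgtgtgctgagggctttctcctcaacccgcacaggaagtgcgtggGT
*MFAP5* exon: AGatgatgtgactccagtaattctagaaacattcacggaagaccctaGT
All these lengths are multiples of 3, so that the loss of one keeps a reading frame.

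Levels were compared between genes per base of annotated exon, so they come out lower where transcripts cover only part of those bases. *THBS2* has 9105 such bases and a longest assembled transcript of 5812 bases, so its place in the order also rests on the annotation. *SPARC* had the highest mean level, 91.5 FPKM over the 12 libraries, and *MFAP5* followed at 10.8 FPKM, with the difference in the same direction in all 12 libraries. The mean was 6.83 FPKM for *THBS2*, 4.99 for *FN1*, 3.73 for *FBLN2*, 2.93 for *FBLN1*, 2.30 for *FBN1*, 1.502 for *THBS1* and 0.511 for *TNC*. Of the 8 pairs of neighbours in this order, 3 did not differ beyond their spread in an exact sign-flip test over libraries, adjusted over the pairs. These were *THBS2* and *FN1* (*THBS2* higher in 8 of 12 libraries, adjusted p = 0.341, exact), *FN1* and *FBLN2* (9 of 12, adjusted p = 0.0753, exact) and *FBLN1* and *FBN1* (9 of 12, adjusted p = 0.0632, exact). Each of the other 5 pairs had an adjusted p of at most 0.0281 in the exact test.

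*FN1* encodes fibronectin and lies at 15:117658158-117737145 on the minus strand. Its level in the Tough libraries was 9.36, 3.59, 5.45, 7.48, 8.15 and 2.39 FPKM for animals 1 to 6, and in the Tender libraries 2.42, 3.16, 4.85, 6.87, 3.05 and 3.08 FPKM. In all, 3 Tough libraries lay above every Tender library and the lowest of all was also Tough, so the groups overlapped. The median was 6.46 FPKM in Tough and 3.12 FPKM in Tender, and the means were 6.07 ± 2.73 and 3.91 ± 1.66 FPKM (SD, n = 6). On the log2(FPKM + 0.5) scale *FN1* was 0.53 ± 0.32 (SE) higher in Tough, a fold of 1.44 with a 95% interval of the log2 difference from -0.17 to 1.22. The limma p was 0.126 unadjusted and 1.00 after Benjamini-Hochberg adjustment over the 9018 genes, and the exact two-sided permutation p of the difference was 0.154. *FN1* was among the genes that the study called on these same animals, so its direction here is not independent of that call.

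*SPARC*, a collagen-binding matricellular protein of remodelling tissue, lies at 16:71368164-71380972 on the plus strand. In Tough it ran from 55.1 through a median of 88.1 to 147 FPKM, and in Tender from 60.8 through 88.1 to 111 FPKM. The Tough libraries fell into 3 at 114 to 147 FPKM and 3 at 55.1 to 62.3 FPKM, and the Tender libraries ran from within the lower of these sets up to just below the higher one. The log2 difference was 0.06 ± 0.28 (SE, exact permutation p = 0.829), and the means were 96.3 ± 41.9 and 86.7 ± 19.2 FPKM (SD, n = 6). *SPARC* transcripts of all 12 libraries held an intron of 10013 bases, at 16:71358138-71368150, that joins exons upstream of the annotated start to the gene. When only transcripts with 90% of their exonic bases in the annotated gene were kept, *SPARC* was listed at 0 in 3 Tough libraries and its log2 difference became -3.58. No other setting gave *SPARC* an unadjusted limma p within the 0.05 threshold, as that rule did.

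*POSTN*, which encodes the matricellular protein periostin, lies at 11:13225183-13258973 on the minus strand. It was listed at 0 in 11 of the 12 libraries. In Tough 4 it had 0.0987 FPKM, from 1 fragment of 3 exons and 672 bases with a read depth of 3.87. A value of 0 in an assembly can also be a transcript that was not assembled, as muscle creatine kinase (*CKM*) was at 0 in 7 of these muscle libraries, so no fold and no test are given.

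*TNC* encodes tenascin-C, an anti-adhesive protein that is prominent at muscle and tendon junctions, and lies at 1:255533235-255630381 on the minus strand. Its levels were the lowest of the tested genes, from 0.117 through a median of 0.582 to 0.900 FPKM in Tough and from 0.125 through 0.353 to 0.954 FPKM in Tender. The highest library and the next to lowest were both Tender, and the groups overlapped over almost the whole range. The log2 difference was 0.16 ± 0.25 (SE, exact permutation p = 0.532).

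*THBS1* encodes thrombospondin-1, an activator of latent TGF-beta, and lies at 1:131728781-131746098 on the minus strand. It ran from 0.689 through a median of 1.59 to 2.16 FPKM in Tough and from 0.536 through 1.39 to 2.34 FPKM in Tender. Both the highest and the lowest library were Tender. The log2 difference was 0.16 ± 0.26 (SE, exact permutation p = 0.558).

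*THBS2* encodes thrombospondin-2, which affects the shape of collagen fibrils, and lies at 1:854473-882467 on the plus strand. The 6 Tough libraries were close together, at 7.44, 5.34, 4.75, 7.64, 5.41 and 7.21 FPKM for animals 1 to 6. The Tender libraries had 7.79, 0.296, 9.65, 7.81, 13.9 and 4.71 FPKM. Of the Tender libraries 4 lay above every Tough library, and Tender 2 lay below every other library. The lowest of the other 11 libraries was 15.9 times the level of Tender 2, and their median 25.1 times. The median was 6.31 FPKM in Tough and 7.80 FPKM in Tender, whereas the mean log2 difference had the opposite sign, 0.18 ± 0.56 (SE, exact permutation p = 0.924). Without Tender 2 the log2 difference was -0.39, with a mean of 8.78 ± 3.38 FPKM (SD, n = 5) in the Tender libraries that remained.

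The low value of *THBS2* in Tender 2 came from 4 separate fragments along the gene, with FPKM of 0.426 to 0.629 and read depths of 3.66 to 5.04. Every other library held a transcript of 22 exons, and the read depths of all *THBS2* transcripts there ran from 18.0 to 157. No neighbouring gene within 1500000 bases lay below the range of the other 11 libraries there. *PSMB1*, a proteasome subunit gene 814440 bases away, was at 124 FPKM in Tender 2 and at 66.6 to 118 FPKM elsewhere, and *PHF10* at 6.73 FPKM against 3.43 to 5.49 FPKM. *SMOC2*, a SPARC-related matricellular gene 310696 bases away, was at 0.364 FPKM in Tender 2, against a median of 0.860 FPKM elsewhere, and 2 of the other 11 libraries were lower. *FGFR1OP*, 1210862 bases away and named after its values were seen, was at 1.35 FPKM against a median of 1.57 FPKM, and 1 of the other 11 was lower. Among the 9018 tested genes, *THBS2* was the only one that Tender 2 held above 0 but at least 10 times below the lowest other library, with that library at 4 FPKM or more, and in the 12 libraries together there were 6 such cases. This search and its cut-offs were not among the planned comparisons, so its return of *THBS2* is a description and no test. Losses to 0 were more common. With every other library at 4 FPKM or more, 10 genes were at 0 in Tender 2, and the libraries had 7 to 22 such genes each. Tender 2 also stood apart in the 8 interferon gamma response genes, whose summed level was 373 FPKM there and 13.5 to 33.3 FPKM in the other libraries. The part of that difference in the value of *THBS2* was not tested.

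**Figure D1:**
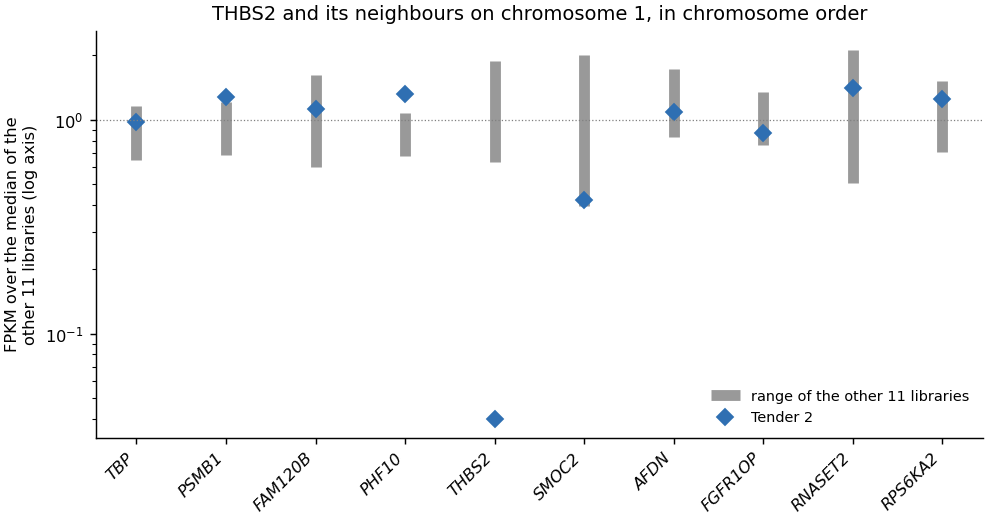
Level of *THBS2* and of its neighbours within 1500000 bases in Tender 2 (blue diamonds), as FPKM over the median of the other 11 libraries on a log axis, with the range of those 11 libraries as grey bars. Genes listed at 0 in a library are left out. *THBS2* in Tender 2 lies far below its bar, while *PSMB1* and *PHF10* lie above theirs.

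*FBN1* encodes fibrillin-1, the backbone of microfibrils, and lies at 1:123102011-123359649 on the plus strand. Its level in Tough was 3.94, 1.84, 2.72, 2.22, 3.11 and 1.59 FPKM for animals 1 to 6, and in Tender 1.26, 1.45, 1.77, 4.23, 1.69 and 1.82 FPKM. The highest library was Tender 4, and the 5 other Tender libraries lay below 5 of the 6 Tough libraries. The log2 difference was 0.31 ± 0.25 (SE), with a 95% interval from -0.23 to 0.86, and the exact permutation p was 0.260. Without Tender 4 it was 0.51, and *FN1* was then 0.69 higher in Tough, both inside the unadjusted limma threshold of 0.05. Neither gene was called after adjustment over all genes in that comparison. Tender 4 was the highest Tender library for both genes, so leaving it out raises both differences by construction. Of all genes tested without Tender 4, 51.1% were higher in Tough, beside 39.7% with all 12 libraries. The share of all genes inside the threshold without Tender 4 is not given here.

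*MFAP5* encodes a microfibril-associated glycoprotein and lies at 5:62742520-62757522 on the plus strand. It ran from 6.11 through a median of 10.9 to 21.5 FPKM in Tough and from 7.19 through 9.16 to 12.4 FPKM in Tender. Tough 1 was the highest library and Tough 2 the lowest, so the Tender range lay inside the Tough range. The log2 difference was 0.24 ± 0.26 (SE, exact permutation p = 0.416), and it was 0.05 without Tough 1.

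The fibulins bind fibrillin, fibronectin and basement membranes. *FBLN1*, at 5:3839498-3927178 on the minus strand, ran from 1.22 through a median of 3.20 to 5.21 FPKM in Tough and from 2.08 through 2.71 to 3.36 FPKM in Tender. *FBLN2*, at 13:70757255-70830430 on the minus strand, ran from 2.77 through 3.30 to 5.97 FPKM in Tough and from 2.205 through 3.80 to 4.76 FPKM in Tender. The ranges overlapped in both genes, with Tough 1 highest in both. The log2 differences were 0.08 ± 0.26 (SE, exact permutation p = 0.773) for *FBLN1* and 0.05 ± 0.21 (SE, exact permutation p = 0.842) for *FBLN2*.

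**Figure D2:**
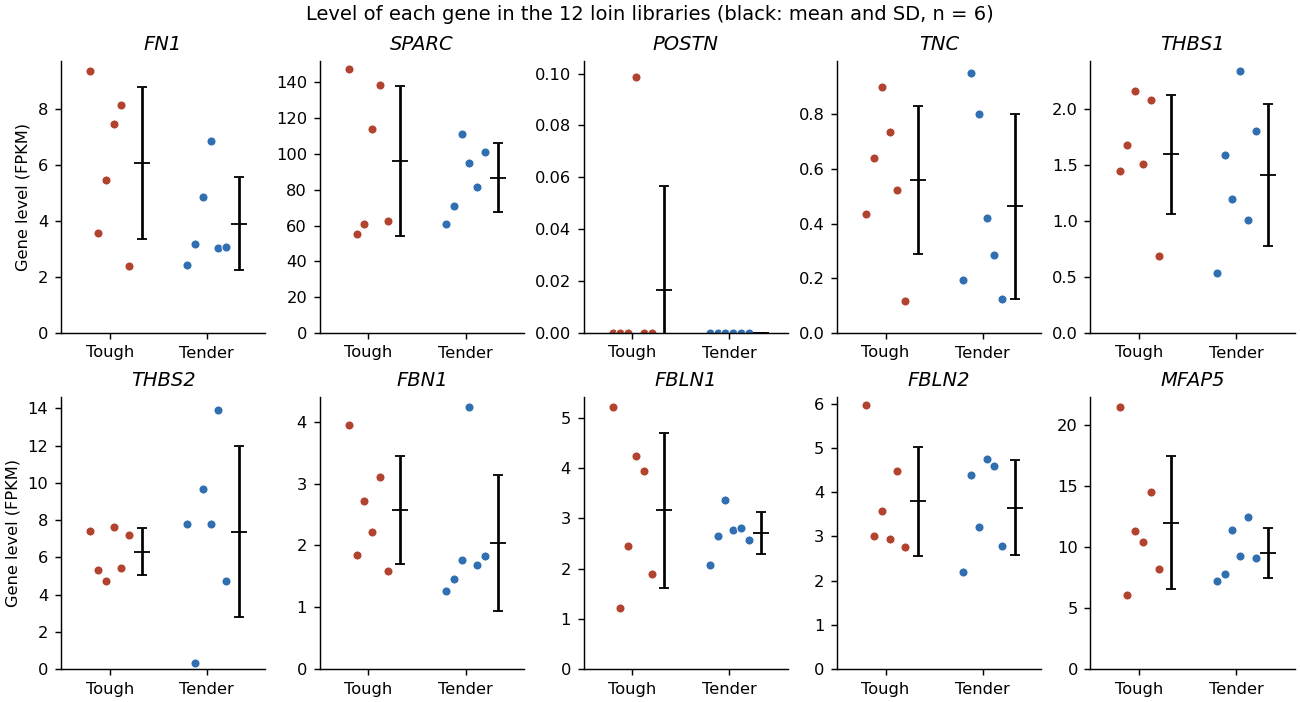
Level of the 10 genes in FPKM (vertical axes, each from 0) in the 6 Tough (red) and 6 Tender (blue) libraries, 1 point per animal in the order of the animal numbers, with the mean and SD in black. The groups overlap for each tested gene, *POSTN* is at 0 in 11 libraries, and *THBS2* has 1 Tender library near 0.

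Over the 9 tested genes, the mean log2 level was higher in Tough for 9 of 9, and none reached an unadjusted limma p of 0.05. The adjusted limma p was 1.00 for each of them. Among all tested genes, 39.7% were higher in Tough and 2.46% (222 genes) had an unadjusted p of at most 0.05. The share of genes higher in Tough depends on the scaling of the libraries and was 49.7% after median-of-ratios scaling, and 50.5% after quantile normalization, where the 9 genes again all lay higher in Tough. The median log2 difference was 0.16 for the 9 genes and -0.04 for all tested genes. In limma 0 of all genes were called at a p of 0.05, an adjusted p of 0.10 and a fold change of 1.5, 0 of them from this list. The exact Wilcoxon test also gave 0 calls, but its smallest p with 6 libraries against 6, 0.00216, could not pass the adjustment over all genes with 9 genes at that p, so this count says nothing further. No tested gene of the list separated the groups without overlap, as 0.0998% of all tested genes did.

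The common sign of the 9 differences depended on single animals. Without Tough 1 the difference was higher in Tough for 6 of 9 genes, and for 35.6% of all genes tested in that comparison. Without Tender 2 it was 7 of the 8 genes then tested, beside 39.4% of all genes, and 0 of them passed the unadjusted threshold of 0.05 in limma, beside 2.57%. Without Tender 4 it was 9 of 9, beside 51.1%. By the medians of FPKM, *THBS2*, *FBLN2* and *SPARC* were not higher in Tough. By mean ranks, 7 of 9 genes were higher in Tough, *THBS2* was lower and *FBLN2* was equal. The genes are also not independent of each other, as their levels moved together from animal to animal.

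**Figure D3:**
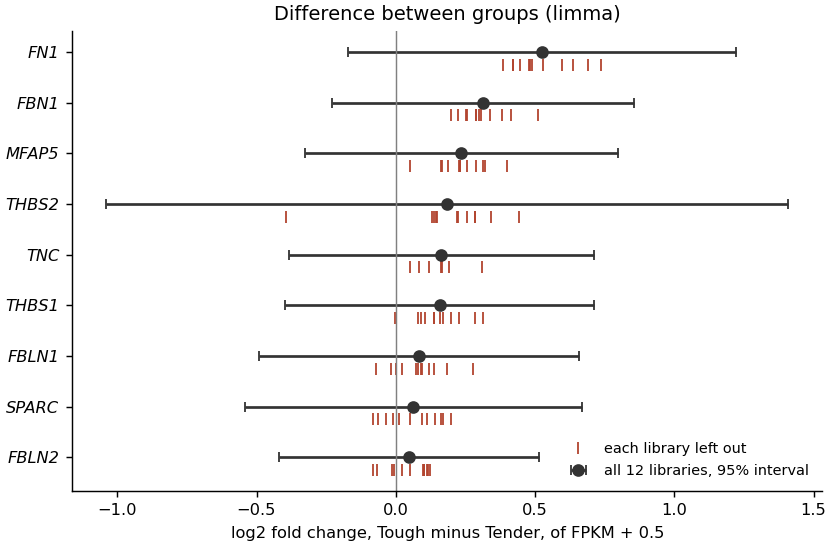
Log2 fold change of FPKM + 0.5, Tough minus Tender, for the 9 tested genes (points) with the 95% interval from limma (bars), and the same value with each of the 12 libraries left out in turn (red ticks below each bar). Each interval includes 0, *FN1* has the highest value at 0.53, and *THBS2* has 1 tick at -0.39, the value without Tender 2.

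The level of these genes within a group showed no relation to shear force that passed a test. In the 6 Tough animals Pearson's r with shear force was positive for 9 of 9 genes and highest for *FN1* (r = 0.65, exact permutation p = 0.167, rho = 0.60, exact p = 0.242). In the 6 Tender animals r was positive for 6 of 9 genes and highest for *THBS2* (r = 0.86, exact permutation p = 0.0778, rho = 0.37, exact p = 0.497). None of the 18 relations had an unadjusted exact p of at most 0.05, and the smallest adjusted p over the 18 was 0.673 (exact permutation). Without the 2 animals farthest from the median shear force, r was -0.10 for *FN1* in Tough and -0.39 for *THBS2* in Tender, so both relations rested on those animals.

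The spread within the groups was compared after the values were seen. On the log2 scale *SPARC* had an SD of 0.64 in Tough and 0.33 in Tender (n = 6 each, exact permutation p of the mean absolute deviation = 0.0108). *FBLN1* had an SD of 0.66 in Tough and 0.19 in Tender (n = 6 each, exact permutation p = 0.00649). After adjustment over all 9018 genes the p was 0.707 for *SPARC* and 0.623 for *FBLN1* in this permutation test. A larger spread in Tough with an unadjusted p of at most 0.05 was found for 2.05% of all tested genes. The Tough SD was the larger in 4 of the 9 genes of the list, and in 46.8% of all tested genes.

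The genes varied together from animal to animal in part of the list. Of the 36 pairs, 8 had an adjusted p of at most 0.05 over the 12 libraries (permutation of 100000 resamples, Benjamini-Hochberg over the 36 pairs). After the group means were removed 8 did so, but not the same 8. *FN1* with *MFAP5* dropped out (adjusted permutation p = 0.0546) and *FBN1* with *FBLN2* entered (0.0365). By rho, only *SPARC* with *FBLN1*, *FN1* with *FBN1*, *FBLN1* with *MFAP5* and *SPARC* with *MFAP5* passed. The closest pair was *SPARC* and *FBLN1* (Pearson's r = 0.90, permutation p = 2e-05, adjusted p = 0.00072, rho = 0.92, permutation p = 5e-05, r = 0.94 within Tough and 0.79 within Tender). *FN1* and *FBN1* followed (r = 0.87, adjusted p = 0.00432 by permutation, rho = 0.86, r = 0.89 within each group). The third was *FBLN1* and *MFAP5* (r = 0.86, adjusted p = 0.00492 by permutation, rho = 0.82). The other 5 of the 8 pairs found over the 12 libraries joined *FN1*, *SPARC*, *FBLN1*, *FBLN2* and *MFAP5* at r of 0.70 to 0.78.

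These relations leaned on Tough 1, the library highest for 5 of the 9 genes. Without it 3 pairs had an adjusted permutation p of at most 0.05, *SPARC* with *FBLN1* (r = 0.87), *FN1* with *FBN1* (r = 0.83) and *FBLN1* with *MFAP5* (r = 0.80). Without the 2 libraries farthest from the median of the first gene named, 1 pair did, *SPARC* with *FBLN1* (r = 0.87), and *FN1* with *FBN1* had r = 0.80 (adjusted permutation p = 0.0580). The libraries also share the scale of their FPKM, and over all 26890111 pairs of the 7334 tested genes with a symbol and at least 1 FPKM, 6.82% had an r at or above the 0.70 of the weakest of the 8 pairs. The median r was 0.50 over the 36 pairs and 0.129 over all those pairs.

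*THBS2* and *TNC* stood outside this pattern. *THBS2* had r of -0.42 to 0.30 with the other 8 genes, and none of the 8 pairs passed. Its values rest in part on the low Tender 2. Without that library r ran from -0.51 with *THBS1* to 0.23 with *FBLN1*, and these values were not tested. *TNC* had r of 0.06 with *SPARC* and 0.09 with *MFAP5*, and its closest gene of the list was *THBS1* at 0.51. *THBS1* in turn had r = 0.67 with *FBN1* (adjusted permutation p = 0.0585).

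**Figure D4:**
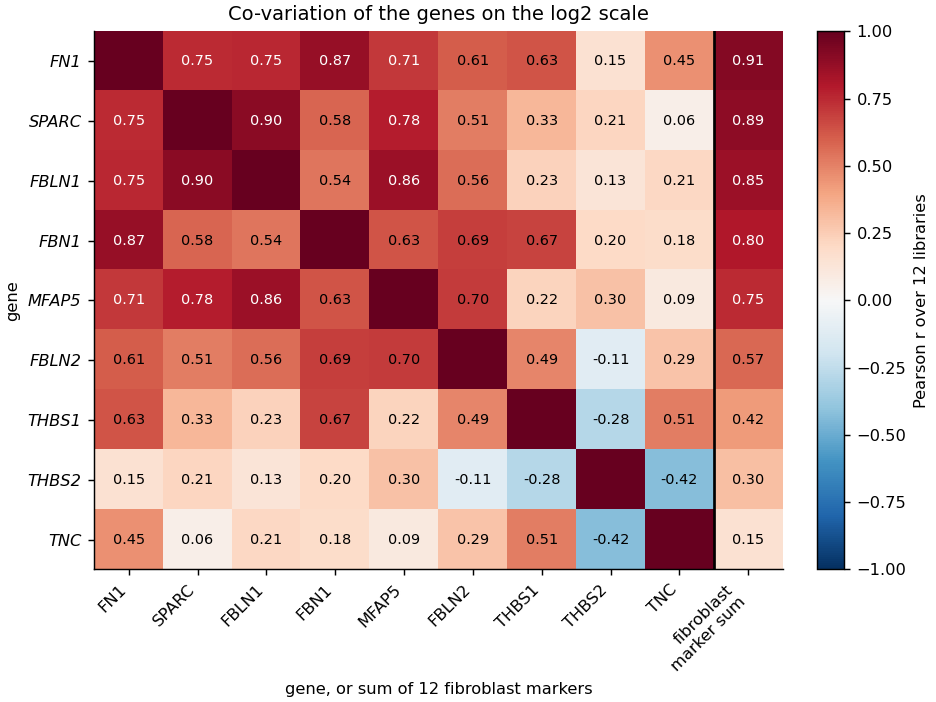
Pearson's r between the log2 levels of the 9 tested genes over the 12 libraries, with the sum of 12 fibroblast markers in the last column, ordered by that column. *SPARC* and *FBLN1* have r = 0.90, and *THBS2* and *TNC* have values near or below 0 with several of the other genes.

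Fibroblast markers moved with these genes. The summed level of 12 fibroblast markers, none of them in the list, ranged from 85.4 to 254 FPKM in Tough and from 84.2 to 186 FPKM in Tender (exact permutation p = 0.387, none called). In Tough 11 of 12 markers were higher, beside 39.7% of all tested genes, and 9 of 12 without Tender 2, beside 39.4%. The study called *COL1A1*, *COL1A2* and *THY1* on these same animals, so this count is not independent of those calls. The r of the marker sum over the 12 libraries was 0.91 with *FN1* (permutation p = 5e-05, rho = 0.82), 0.89 with *SPARC* (p = 9e-05 by permutation, rho = 0.94) and 0.85 with *FBLN1* (p = 7e-05 by permutation, rho = 0.92). It was 0.80 with *FBN1* and 0.75 with *MFAP5*, and adjusted permutation p-values over the 9 genes were at most 0.00661 for these 5. *FBLN2* (0.57), *THBS1* (0.42), *THBS2* (0.30) and *TNC* (0.15) did not pass. Without the 2 libraries farthest from the median of the marker sum, r was 0.86 for *FN1*, 0.85 for *SPARC* and 0.72 for *FBLN1*. This comparison was chosen after the values were seen. In muscle tissue as a whole, more fibroblasts and more RNA per fibroblast cannot be told apart, and the part of either in the levels was not tested.

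The genes most like each tested gene across the 12 libraries were sought among the 7334. *FN1* was closest to the collagen gene *COL1A2* (r = 0.92), the follistatin-like gene *FSTL1* (0.91) and the fatty acid desaturase gene *FADS2* (0.91). *SPARC* was closest to *FADS3* (0.94), *GSS* (0.94) and the matrix metalloproteinase gene *MMP2* (0.92). *FBN1* was closest to *COL5A2* (0.97), *LAMA4* (0.95) and *EFEMP1* (0.93), which encode a collagen, a laminin and a fibulin family member. *FBLN1* was closest to *MYOC* (0.94), *MMP2* (0.94) and the latent TGF-beta binding protein gene *LTBP3* (0.92), and *MFAP5* to *CD99* (0.92), *PLXDC1* (0.90) and *CNN3* (0.90).

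As for *MFAP5*, none of the closest genes named for the remaining genes encodes a matrix protein. *FBLN2* was closest to *RGL2* (0.96) and *RPAP1* (0.95), *THBS1* to *KCTD10* (0.89), *AKAP7* (0.89) and *OARD1* (0.88), and *TNC* to *PSMA4* (0.81), *SSU72* (0.80) and *MYBBP1A* (0.78). For *THBS2* the closest were *MRPL49* (r = 0.96, rho = 0.86), *SPATA24* (r = 0.95, rho = 0.51) and *HSF1* (r = 0.94, rho = 0.41). These values describe 12 libraries that share their scaling, and no test was made of them.

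The splice forms of the genes were compared next. The assembled transcripts of the 10 genes held 255 introns, of which 248 begin with GT and end with AG on the reference, and they covered 238 of the 272 annotated introns. For *FN1* the annotation holds 1 transcript, which includes both extra domain exons. All 29 assembled transcripts that span the extra domain B exon skipped it, in 12 of 12 libraries. Of 34 transcripts that span the extra domain A exon, those in 11 libraries skipped it, and in Tough 3 a form with 0.707 FPKM, 11.9% of the total over that exon, held it. Both exons are known for their presence in fibronectin of embryonic and healing tissue and their low share in the adult.

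Transcript fragments that begin inside these exons were also present, so the exons were not absent from the RNA. In Tough 1 a fragment with 264 of the 273 bases of the extra domain B exon had 10.7 FPKM, and in Tender 1 a pair of fragments with 53 of its bases had 1.18 and 2.03 FPKM. In Tender 2 and Tender 5 fragments with 174 and 148 of the 270 bases of the extra domain A exon had 3.42 and 3.45 FPKM. These values belong to whole fragments that run on to the 3′ end of the gene, so they do not measure the share of fibronectin mRNA that held an extra domain, and they count below towards the forms of the variable region.

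The variable region of *FN1* was used in 3 forms that leave the same donor. The annotated form, which skips 0 bases, held 60.4% ± 6.06 of the level over this junction in Tough and 51.4% ± 14.03 in Tender (SD, n = 6). The form that skips the 75 bases shown above held 25.2% ± 7.82 and 26.6% ± 18.1. It was found in 12 of 12 libraries, from 13.3% in Tender 2 to 61.6% in Tender 5, where it rested on the fragment that begins in the extra domain A exon. The form that skips 360 bases held 14.4% ± 7.71 in Tough and 21.96% ± 5.08 in Tender, and it was absent from the assembly of Tough 2. The difference in this form had an exact permutation p of 0.0584 and, over the 9 splice measures tested, an adjusted p of 0.263.

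In *FBLN2* the 141-base exon was held by some transcripts and skipped by others in every library. Its share of the level was 72.6, 30.3, 43.0, 79.1, 53.0 and 49.1% in Tough 1 to 6 and 43.8, 43.3, 31.6, 49.9, 41.8 and 52.9% in Tender 1 to 6. The highest and the lowest value were both Tough, and the groups overlapped (means of 54.5% ± 18.4 and 43.9% ± 7.39, SD, n = 6, exact permutation p = 0.245, adjusted p = 0.545). The exon encodes part of the run of EGF-like repeats of fibulin-2.

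In *MFAP5* the 45-base exon shown above was held by 75.7 to 100% of the level in the 10 libraries where a transcript spanned and included it. In Tough 2 and Tender 4 the spanning transcripts all skipped it, but fragments that end 44 and 39 bases into the exon had 4.07 and 5.60 FPKM. When transcripts with at least 1 of its 2 junctions were counted, the share was 41.4% in Tough 2 and 39.2% in Tender 4, and the exact permutation p between the groups was 0.476.

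*FBLN1* is known for C-terminal variants, and the annotation places 2 ends of the gene 34925 bases apart. Transcripts with the end nearer to the start of the gene held 24.4 to 34.8% of its level in Tough (mean 29.5% ± 3.42, SD, n = 6) and 21.2 to 29.3% in Tender (25.2% ± 3.30, SD, n = 6). The exact permutation p was 0.0476, and the adjusted p over the 9 splice measures was 0.263. The *FBLN1* ends and the *FN1* variable region forms were not among the planned measures. The exons of the alternative repeats of *TNC* were also skipped or held from library to library, but at its level only 19 and 16 transcripts in all spanned the 2 that were tested (exact permutation p = 0.303 and 1.00).

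**Figure D5:**
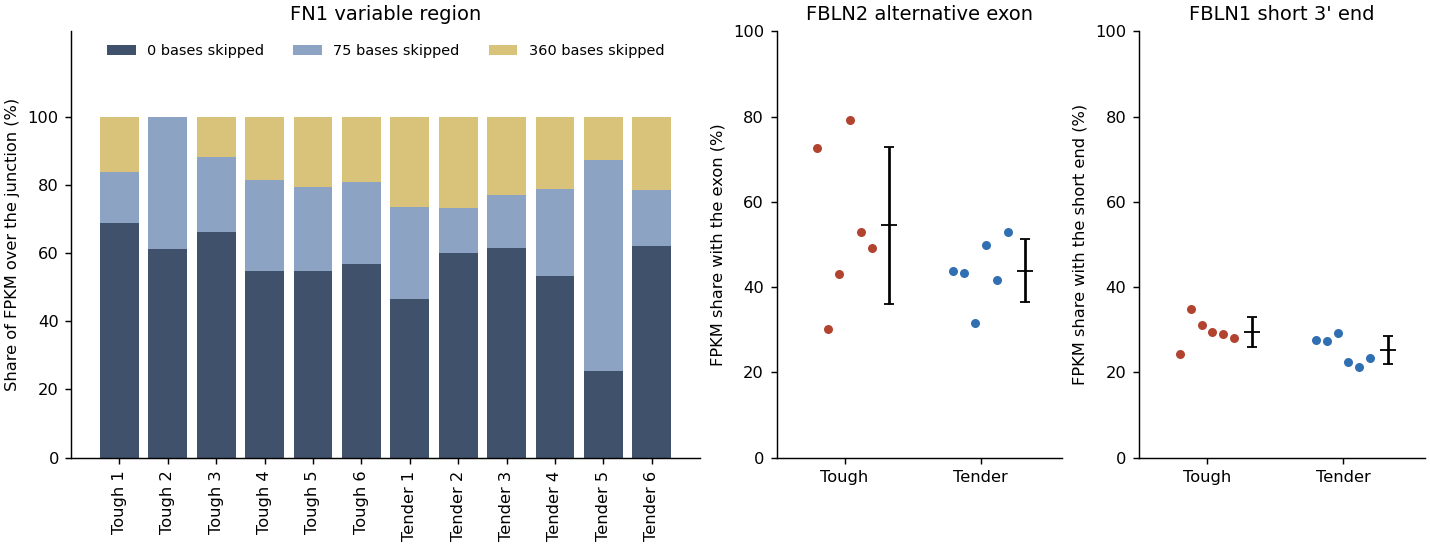
Shares of the level in FPKM, in percent. Left, the 3 forms of the *FN1* variable region in each of the 12 libraries (stacked bars). Middle and right, the share of *FBLN2* with the 141-base exon and of *FBLN1* with the shorter 3′ end in Tough (red) and Tender (blue) animals, with mean and SD in black. The 75-base skip is highest in Tender 5 at 61.6%, and the groups overlap in both genes.

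The partners of these proteins were counted from lists chosen with earlier results of these data known. Of 18 tested elastic fibre and microfibril genes beyond the list, such as *ELN* and the lysyl oxidases, 13 were higher in Tough, none past the unadjusted threshold, and the median log2 difference was 0.10. *EFEMP1* had the smallest limma p, at 1.30 ± 0.506 FPKM in Tough and 0.893 ± 0.491 FPKM in Tender (SD, n = 6, exact permutation p = 0.147), followed by *MMRN2* at 0.604 ± 0.183 and 0.738 ± 0.181 FPKM (exact p = 0.216). Of 22 other matricellular and adhesive genes 18 were higher in Tough (median 0.12), and the count was 14 without Tender 2. Of all tested genes, 39.7% were higher in Tough, and 39.4% without Tender 2. *THBS3*, a further thrombospondin, was at 0.671 ± 0.261 FPKM in Tough and 0.378 ± 0.0798 FPKM in Tender (exact permutation p = 0.0281, adjusted limma p = 1.00). *CTGF*, a target of TGF-beta that the study also called on these animals, was at 5.21 ± 1.79 and 3.83 ± 2.78 FPKM (exact permutation p = 0.227).

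Of 17 integrins and other receptors, 7 were higher in Tough and 10 in Tender (median -0.14), beside 39.7% of all tested genes higher in Tough. The 2 of smallest limma p were *SDC2*, a syndecan listed at 0 in libraries of both groups (exact permutation p = 0.152), and *SCARB2* at 14.7 ± 5.76 FPKM in Tough and 18.3 ± 4.29 FPKM in Tender (exact p = 0.206). Of 15 genes of TGF-beta ligands, activation and targets, 7 were higher in Tough (median -0.01), beside the same 39.7%. After median-of-ratios scaling 10 of the 15 were higher in Tough (median 0.03), beside 49.7% of all tested genes. *ENG*, an endothelial co-receptor of TGF-beta that the study also called on these animals, was at 6.60 ± 2.21 FPKM in Tough and 9.19 ± 0.888 FPKM in Tender (exact permutation p = 0.0325, adjusted limma p = 1.00), and *TGFB1I1* at 1.39 ± 0.390 and 1.15 ± 0.115 FPKM (exact p = 0.212).

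Of 13 tested collagens 12 were higher in Tough, with a median of 0.27, beside 39.7% of all tested genes. After median-of-ratios scaling 11 were so, beside 49.7%. The study called some of these collagens on these animals, so this count is not independent evidence of their direction. *COL14A1*, a fibril-associated collagen, was at 1.73 ± 0.679 FPKM in Tough and 0.990 ± 0.555 FPKM in Tender (exact permutation p = 0.0519, adjusted limma p = 1.00), and *COL3A1* at 26.9 ± 10.6 and 17.8 ± 13.3 FPKM (exact p = 0.104).

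The tissue label was checked against markers. All 12 tested skeletal muscle fibre genes had a level, with a summed level of 8038 to 12174 FPKM in Tough and 7036 to 13233 FPKM in Tender, 6 higher in each group, although *CKM*, *ACTN2* and *CASQ1* were listed at 0 in 7, 5 and 4 libraries. Tendon cell markers summed to 18.5 to 51.5 and 23.7 to 45.001 FPKM, *SCX* and *MKX* had no transcript in any library, and 3 of 4 tested were higher in Tough. Without Tender 2 it was 2 of 4, and of all tested genes 39.7% were higher in Tough. The tendon marker of smallest limma p, *CILP*, was higher in Tender, at 10.8 ± 3.49 FPKM in Tough and 14.5 ± 1.89 FPKM in Tender (SD, n = 6, exact permutation p = 0.039). It was not called after adjustment over all genes. Higher in Tough were also 5 of 6 smooth muscle and pericyte markers, with *DES* at 0 in 5 libraries and a summed level of 30.9 to 2067 and 35.1 to 2497 FPKM, and 2 of 3 Schwann cell markers (7.31 to 10.3 and 6.50 to 11.3 FPKM).

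Higher in Tender were 8 of 8 endothelial markers (summed level 19.9 to 42.6 FPKM in Tough and 31.2 to 49.1 FPKM in Tender), 8 of 9 macrophage markers (13.1 to 47.2 and 17.4 to 87.6 FPKM), 4 of 6 adipocyte markers (95.9 to 218 and 165 to 226 FPKM, *ADIPOQ* without a transcript), 7 of 7 interferon gamma response genes (13.5 to 33.3 and 14.7 to 373 FPKM) and 2 of 2 blood genes. These counts stand beside 39.7% of all tested genes higher in Tough, so that most genes lay higher in Tender. The direction of the interferon genes turned without Tender 2, where 4 of the 6 then tested were higher in Tough and the median log2 difference was 0.08 in place of -0.52. Of the adipocyte markers 3 of 6 were higher in Tough without Tender 2. The summed blood level did not overlap between the groups, at 124 to 206 FPKM in Tough and 238 to 351 FPKM in Tender (exact permutation p = 0.00216, the smallest that 6 libraries against 6 allow). Nearly all of this sum was the haemoglobin gene *HBB*, at 124 to 206 FPKM in Tough and 237 to 349 FPKM in Tender. The other tested blood gene, *ALAS2*, was at 0.516 to 1.09 FPKM in Tough and 1.15 to 2.09 FPKM in Tender. Neither gene was called after adjustment over all genes. Groups without overlap were found for 0.0998% of all tested genes. The part of these cell types in the levels of the matrix genes was not tested.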

How the data were processed

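RNA of the loin muscle of 12 pigs (6 Tough, 6 Tender) was sequenced, 1 library per animal. The authors checked reads with FastQC, trimmed them with Trim Galore, aligned them to Sscrofa11.1 with TopHat2 2.1.0 and assembled each library with Cufflinks 2.2.1. The deposited assemblies hold FPKM per transcript, and the whole-number Cufflinks score that the authors deposited beside it was not used. The files hold no counts, so no count test was run.

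A transcript was assigned to an NCBI-annotated gene of Sscrofa11.1 that held at least 50% of its exonic bases on the same strand, and gene FPKM was the sum of FPKM times transcript length over gene exon length. Genes whose mean exceeded 0.5 FPKM entered limma 3.58.1 (R 4.3.3, eBayes with trend) on log2(FPKM + 0.5), a pseudocount that understates fold changes of low genes, with Benjamini-Hochberg adjustment. Exact permutation tests, correlations and figures used Python 3.11.15, numpy 2.4.6, pandas 2.3.3, scipy 1.17.1, matplotlib 3.10.9 and pysam 0.24.0. P-values measure the spread between these animals. The thresholds for a call were 0.05 for p, 0.10 for the adjusted p and 1.5 for the fold change. The fit was tested on simulated data.

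The genes and lists were chosen with earlier results of these data known. Named were the 10 genes, for each tested one the 3 genes of highest r (1 of them is not reported here), and from each list the 2 genes of smallest p, while marker lists are given by sums and counts. Exons were those that assembled transcripts skip, whether or not an annotated isoform does. The other Tender animal of the study was not analysed here, and no promoter or protein sequence table was used here. The alternatives were pseudocounts, filters, scalings, rules for transcripts, weights, a replicate block, a rank test and leaving out each library.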

Additional observations from a re-analysis of the deposited data

Results flagged for a closer look

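In 4 genes a single library lay far from the rest of its group of 6 by Dixon's criterion, which chance meets in about 1 of 20 groups. The FPKM values were screened in 19 groups. *FBN1* was highest in Tender 4, at 4.23 FPKM, both in FPKM (gap over range 0.812) and on the log2 scale (0.721). *THBS2* was lowest in Tender 2, at 0.296 FPKM, on the log2 scale only (0.648). *POSTN* had its only value, 0.0987 FPKM, in Tough 4. With 0 in the other 11 libraries it met the criterion by construction, so the rate given above does not apply to it. The share of *MFAP5* with the 45-base exon was 0% in Tough 2 and 0% in Tender 4 among spanning transcripts, where other fragments ended inside the exon.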

How the results depend on the processing

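Under 26 alternative settings, with 226 fold changes of single genes, 0 settings called any gene. Genes with an unadjusted limma p of at most 0.05 numbered 0 as reported, 2 with array weights (*FN1* and *FBN1*), 1 with the highest transcript alone (*FBN1*) and 2 with transcripts at least 90% inside the gene (*SPARC* and *FBN1*). Leaving out each library gave 0 to 2 such genes, 2 without Tender 4 (*FN1* and *FBN1*) and 1 without Tough 6 (*FN1*), 6 to 9 genes higher in Tough, and a median log2 difference of 0.08 to 0.31. Of all tested genes, 2.46% passed that p as reported and 2.57% without Tender 2. The share is not given here for the other settings, so the counts of single genes there cannot be read against it. Signs changed in 17 of the 226 fold changes. These were *THBS2* with array weights (-0.16), *FBLN1* with the highest transcript alone (-0.041), *THBS2* (-0.10) and *FBN1* (-0.31) with a plain sum of transcript FPKM, and *SPARC* with the 90% rule (-3.58), where its transcripts run into exons outside the annotation. The others came from leaving out a library, with ranges of -0.083 to 0.20 for *SPARC*, -0.00448 to 0.31 for *THBS1*, -0.39 to 0.44 for *THBS2*, -0.070 to 0.28 for *FBLN1* and -0.080 to 0.12 for *FBLN2*. The cause was not tested. The strand-free transcripts, the pairs without Tough 1, the fibroblast sum and the single-junction exon count were chosen after seeing the data. The *FBLN1* ends and the *FN1* variable region forms were not among the planned comparisons. Nor were the order of levels, the *THBS2* neighbours and the search for single low libraries.

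The animal numbers do not pair the samples. Same-numbered deviations had correlations of -0.22 to 0.02, and 0 of the 6 numbers matched best with their own. With the replicate block 0 genes were called, 9 of 9 genes were higher in Tough and the median log2 difference stayed at 0.16.

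The files give no counts, so the precision of low levels such as *TNC* and *POSTN* cannot be stated from read numbers, and a level of 0 or a missing exon cannot be told apart from a transcript that was not assembled.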
